A study of Homo sapiens with 16 samples.

Results

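Expression was compared between TT642 cells with and without an induced short hairpin RNA (shRNA) against PRRX1. The 6 libraries carrying a hairpin were chosen by their titles from the 16 libraries of the series. The titles number 3 derived lines, and these numbers were read as hairpins 1, 2 and 3. Each line was sequenced once without doxycycline and once after 3 µg/ml doxycycline, which switches a tet-inducible hairpin on. How long doxycycline was given for is not stated in the labels. The other TT642 libraries are 1 parental pair, which carries no hairpin and was sequenced without and with the same dose of doxycycline. The remaining 8 libraries repeat this design in Hs578, a line from a breast tumour. By its source label TT642 is a rhabdoid tumour line, whereas the design text of the series describes TT642 and Hs578 alike as triple-negative breast cancer, in which hormone receptors and HER2 are lacking.

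PRRX1 encodes a homeobox transcription factor of limb, craniofacial and other mesenchyme, and homeodomains of its class bind DNA around a TAAT core. It is one of the factors linked to epithelial-mesenchymal transition (EMT), and fibroblasts that make extracellular matrix express it. Rhabdoid tumours typically lose SMARCB1, a core subunit of the SWI/SNF chromatin remodelling complex. A short hairpin is processed to a small RNA that guides cleavage of its target messenger RNA, and it can also act on other messengers with partial matches.

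Total counts were 15265227 to 24672906 in the 6 hairpin libraries. No pair of them agreed within sampling noise. The log2 levels of 2 hairpin libraries correlated at 0.984 to 0.996 across genes, and those of a hairpin and a parental library at 0.976 to 0.988. In 5 of the hairpin libraries mitochondrial transcripts made up 2.59% to 3.04% of counts, and in the induced library of hairpin 3 they made up 3.98%. SMARCB1 stood at 28.8 to 41.6 CPM (counts relative to the scaled library total) in the 8 TT642 libraries, against 87.7 to 125 CPM in the Hs578 libraries. The skeletal muscle regulators MYOD1 and MYOG and the blood marker PTPRC had no count in the 6 hairpin libraries. Each derived line is 1 line, and nothing in the labels says that libraries came from separate cultures. P-values therefore reflect the spread among these samples alone, part of which may be technical. The tests estimate this spread from TT642 and Hs578 libraries together, except where TT642 or hairpin libraries alone are named.

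PRRX1 was lower in each induced line, by different amounts. It stood at 1213, 1409 and 1301 CPM without doxycycline and 265, 184 and 513 CPM with it in hairpins 1, 2 and 3. The 3 induced libraries lay below all uninduced ones, and hairpin 3 kept the most. The level left was 21.8% (95% exact interval 21.1% to 22.5%), 13.0% (12.6% to 13.5%) and 39.4% (38.6% to 40.3%), intervals that cover counting error only and do not overlap. Behind these levels stood 21390, 28973 and 23394 counts without doxycycline and 4389, 3949 and 13342 with it. In FPKM, which also divides by transcript length, PRRX1 stood at 302, 341 and 323 FPKM without doxycycline and 64.2, 44.1 and 121 FPKM with it. The parental pair held 1484 and 1533 CPM, so 103% was left after doxycycline alone (102% to 105%).

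The mean PRRX1 level was 1308 ± 98.2 CPM without and 320.5 ± 172 CPM with doxycycline (SD, n = 3). By edgeR's quasi-likelihood test this difference was not called after adjustment over all 14035 genes (log2 fold change -2.03, SE 0.36, adjusted p = 0.166), nor with the hairpin number as a block (adjusted p = 0.157). It was called by DESeq2 (adjusted p = 6.38e-05), by edgeR without robust moderation (adjusted p = 0.0334) and by edgeR without the induced hairpin 3 library (adjusted p = 0.00403). The adjusted p ran from 6.38e-05 to 0.696 over 22 alternatives of edgeR, DESeq2 and limma. With 3 libraries a group, a two-sided exact permutation test gave p = 0.1, its smallest possible value. The paralogue PRRX2 stood at 71.2, 54.6 and 56.3 CPM without doxycycline and 49.8, 27.5 and 54.3 CPM with it. PRRX2 was lower in each induced line, but the groups separated only narrowly (54.3 CPM induced in hairpin 3, 54.6 CPM uninduced in hairpin 2). The gene was not called by edgeR (log2 fold change -0.47, SE 0.34, adjusted p = 0.833).

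The main question was which other genes differ when the hairpins are induced. By edgeR 4 genes were called, which is 0.0285% of the 14035 genes tested, while 1098 had an unadjusted p under 0.05. CD82 and CENPT rose (0.0143% of genes were called higher), and ENO3 and IL23A fell (0.0143% were called lower). These are the 4 genes with which the comparison had been singled out, so their calls are a description of these libraries and not a second test.

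CD82 encodes a tetraspanin, a membrane protein that organises receptors and integrins and is known as a suppressor of metastasis. It stood at 9.52, 7.29 and 10.6 CPM without doxycycline and 23.2, 22.8 and 23.5 CPM with it. The induced libraries were nearly equal and all lay above the uninduced ones. The parental pair held 5.07 and 6.58 CPM, below every hairpin library. CD82 rose by edgeR (log2 fold change 1.35, SE 0.14, adjusted p = 0.00148), and it was called under 21 of 22 alternatives. The exception left out both libraries of hairpin 1 (adjusted p = 0.059 by edgeR, over a range of 4.12e-16 to 0.059).

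ENO3 encodes beta-enolase, the glycolytic enolase of skeletal muscle. It stood at 90.4, 81.8 and 86.7 CPM without doxycycline and 42.3, 48.1 and 51.9 CPM with it, so every induced library was below every uninduced one. The parental pair held 124 and 105 CPM, above the hairpin libraries. ENO3 fell by edgeR (log2 fold change -0.86, SE 0.10, adjusted p = 0.00255). The call was lost without hairpin 1 and in limma on FPKM (adjusted p = 0.0793 and 0.0555 to 0.138, over a range of 1.26e-11 to 0.138). The other enolases were not called by edgeR. ENO1, the form found in most cells, had a log2 fold change of -0.18 (SE 0.11, adjusted p = 0.751), and neuronal ENO2 had -0.19 (SE 0.22, adjusted p = 0.912).

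CENPT encodes a DNA-binding protein of the inner kinetochore, which couples centromeric chromatin to the microtubule-binding complex. It stood at 18.2, 15.7 and 18.8 CPM without doxycycline and 24.8, 30.7 and 30.2 CPM with it. The groups did not overlap, and hairpin 1 showed the smallest difference. The parental pair held 18.2 and 16.3 CPM, a difference in the opposite direction. CENPT rose by edgeR (log2 fold change 0.71, SE 0.11, adjusted p = 0.0441), but of 9 fits that left out a hairpin or a library it kept its call only in the 1 without the induced hairpin 1 library, with adjusted p from 0.0178 to 0.293. It also lost its call with the 6 hairpin libraries alone (edgeR adjusted p = 0.232, or 0.0764 with the block) and with the 8 TT642 libraries alone (0.258), and was called under 7 of 22 alternatives.

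IL23A encodes the p19 subunit that pairs with IL12B to form interleukin 23. It stood at 10.3, 4.91 and 5.67 CPM without doxycycline and 1.81, 0.651 and 1.42 CPM with it. The groups did not overlap, and each hairpin line lost most of its IL23A. The parental pair also differed in this direction, at a higher level, with 35.2 and 18.8 CPM. IL23A fell by edgeR (log2 fold change -2.44, SE 0.37, adjusted p = 0.0441), and with the block its adjusted p was 0.000878. Without the block the call held in 2 of 9 fits that left out a hairpin or a library, those without hairpin 2 or its uninduced library, with edgeR adjusted p from 0.0321 to 0.145. Also without the block it was lost with the 6 hairpin libraries or the 8 TT642 libraries alone (edgeR adjusted p = 0.258 and 0.288), and IL23A was called under 12 of 22 alternatives.

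**Figure D1:**
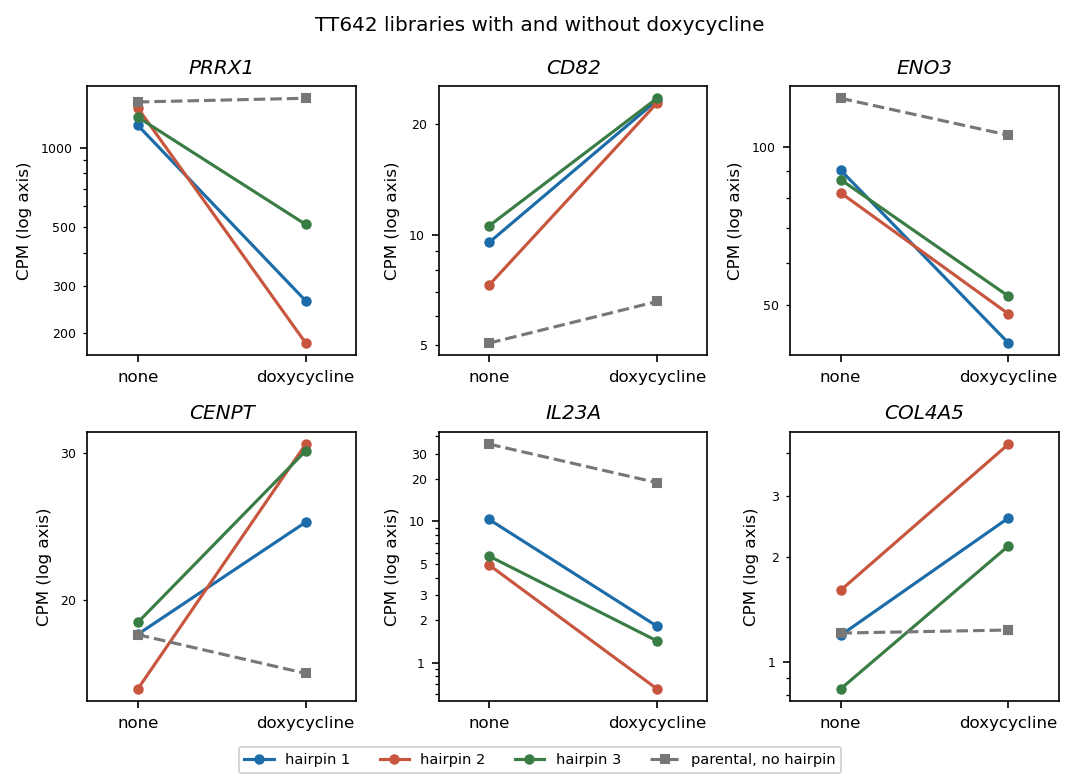
TMM-scaled CPM on a log axis for PRRX1, CD82, ENO3, CENPT, IL23A and COL4A5 in the 8 TT642 libraries, without and with doxycycline. Coloured points are single libraries of hairpins 1 to 3 joined within a line, and grey squares are the parental pair. In each panel the 3 induced hairpin libraries lie on 1 side of the 3 uninduced ones, while parental PRRX1 stays at 1484 and 1533 CPM.

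The 250 bases before the start of these 4 genes are shown because PRRX1 is a DNA-binding homeobox factor. They come from RefSeq on GRCh38.p14 and are written 5′ to 3′ on the gene's strand. Capitals mark the TAAT core, searched on both strands as TAAT or ATTA.
CD82, chr11:44565413-44565662, plus strand: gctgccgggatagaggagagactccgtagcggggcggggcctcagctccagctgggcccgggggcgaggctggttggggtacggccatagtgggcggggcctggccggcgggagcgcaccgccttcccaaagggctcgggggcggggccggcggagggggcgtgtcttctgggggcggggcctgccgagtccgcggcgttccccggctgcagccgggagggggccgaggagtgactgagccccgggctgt
CENPT, chr16:67847694-67847943, minus strand: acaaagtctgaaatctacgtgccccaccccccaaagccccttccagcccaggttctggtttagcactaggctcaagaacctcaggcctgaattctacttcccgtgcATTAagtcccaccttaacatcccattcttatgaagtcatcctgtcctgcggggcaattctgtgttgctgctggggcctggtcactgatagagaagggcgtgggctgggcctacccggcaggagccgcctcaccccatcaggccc
ENO3, chr17:4950302-4950551, plus strand: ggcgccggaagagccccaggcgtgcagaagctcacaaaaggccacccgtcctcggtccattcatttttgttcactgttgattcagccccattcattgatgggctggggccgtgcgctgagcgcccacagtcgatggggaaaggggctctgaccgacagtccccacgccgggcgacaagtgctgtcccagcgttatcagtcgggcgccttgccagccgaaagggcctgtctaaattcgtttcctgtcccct
IL23A, chr12:56338634-56338883, plus strand: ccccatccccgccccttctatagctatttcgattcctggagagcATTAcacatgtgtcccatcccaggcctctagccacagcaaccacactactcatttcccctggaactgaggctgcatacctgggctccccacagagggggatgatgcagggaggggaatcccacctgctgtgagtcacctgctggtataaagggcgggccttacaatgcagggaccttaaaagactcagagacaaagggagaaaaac
CENPT and IL23A each held 1 core, in the ATTA orientation, and CD82 and ENO3 held none. Such a core occurred in 48.2% of 27305 RefSeq promoters of this length and in 33% of the 10466 promoters matched to tested genes. These matches describe letters in this window and show no binding.

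Same-numbered libraries stem from 1 derived line, and the comparison was also fitted with the hairpin number as a block. By edgeR with the block 46 genes were called, 24 higher (0.171%) and 22 lower (0.157%), which is 0.328% of the genes tested. DESeq2 without a block called 79, 43 higher (0.306%) and 36 lower (0.257%). The 4 genes above were called in all 3 fits, and 30 were called in both the blocked fit and DESeq2. Of the 46 blocked calls, 34 had induced and uninduced libraries that did not overlap, against 8.54% (higher) and 6.31% (lower) of all genes. These calls were chosen for a difference, so the 34 describe that choice. The parental pair went in the same direction for 36 of the 46, and the matching share of all genes was not computed. The blocked calls depended on single lines and on the other libraries that share the fit. Only 5, 5 and 22 of the 46 were kept without hairpin 1, 2 and 3, where 6, 7 and 41 genes were called, and 13 were kept with the block on the 6 hairpin libraries alone. In what follows, rose and fell for these genes refer to the blocked edgeR fit, and none of the genes described next was called by edgeR without it.

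Among genes that rose, COL4A5, a basement membrane collagen chain, stood at 1.19, 1.6 and 0.834 CPM without doxycycline and 2.59, 4.23 and 2.15 CPM with it. Each induced library was above every uninduced one, although all were low, and the parental pair held 1.21 and 1.23 CPM. COL4A5 rose (log2 fold change 1.30, SE 0.22). EPYC, the cartilage proteoglycan epiphycan, stood at 6.07, 11.1 and 4.23 CPM without doxycycline and 17.5, 24.3 and 9.54 CPM with it. Its groups overlapped, with hairpin 3 the lowest of the lines, but it rose within each line (log2 ratios 1.52, 1.12 and 1.15, and log2 fold change 1.27, SE 0.16). TIMP3, an inhibitor of matrix metalloproteinases bound to the matrix, stood at 222, 242 and 216 CPM without doxycycline and 335, 338 and 303 CPM with it, without overlap, while the parental pair held 240.3 and 218 CPM. TIMP3 rose (log2 fold change 0.52, SE 0.08).

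PXDN, the peroxidase that crosslinks collagen IV, COL12A1, a collagen associated with fibrils, GPC4, a glypican, and OLFML3, a secreted olfactomedin-like protein, also rose. Their log2 ratios in hairpins 1, 2 and 3 were 0.60, 0.97 and 0.67 for PXDN and 0.64, 0.88 and 0.73 for COL12A1. For GPC4 they were 0.62, 0.39 and 0.40, and for OLFML3 1.35, 2.13 and 0.96. All 12 ratios were above 0, and the parental ratios of these genes ran from -0.18 (GPC4) to 0.13 (PXDN). COL12A1 levels varied more between lines, from 1.8 to 12 CPM uninduced, than within them. TMEM2, a membrane hyaluronidase that cuts the matrix glycan hyaluronan, rose from 7.23 ± 0.888 to 10.9 ± 0.834 CPM (SD, n = 3).

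CPE, a carboxypeptidase that trims prohormones, stood at 1.59, 0.875 and 1.67 CPM without doxycycline and 4.1, 1.72 and 2.96 CPM with it, and its parental pair went the other way, at 1.86 and 1.39 CPM. CPE rose (log2 fold change 1.06, SE 0.18). PROCR, the endothelial protein C receptor, stood at 1.25, 1.41 and 1.06 CPM without doxycycline and 2.53, 2.6 and 2.35 CPM with it (log2 fold change 1.01, SE 0.17), and its parental pair differed in the same direction, at 2.46 and 3.7 CPM (net of the parental pair 0.41, SE 0.31). C10orf54, which encodes the immune checkpoint protein VISTA, stood at 13.7, 9.92 and 10.8 CPM without doxycycline and 18.1, 21.3 and 21.3 CPM with it (log2 fold change 0.83, SE 0.15), and in the parental pair at 8.74 and 9.56 CPM. For both genes the 3 induced libraries were all above the uninduced ones. SLC27A1, a fatty acid transporter, stood at 5.84, 6.51 and 8.01 CPM without doxycycline and 10.6, 15 and 10.8 CPM with it, also without overlap (log2 fold change 0.83, SE 0.16), and its parental pair held 4.79 and 6.01 CPM. DAB2IP, a Ras GTPase-activating protein, rose by 0.53 and NUTF2, a nuclear import factor for Ran, by 0.37 on the log2 scale. The log2 ratios of NUTF2 were 0.36, 0.38 and 0.38.

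Among genes that fell, CRYAA had the largest fold change after IL23A. It encodes alpha-A crystallin, a small heat shock protein of the lens, and stood at 18.1, 7.73 and 12.8 CPM without doxycycline and 4.94, 0.883 and 3.65 CPM with it. Every induced library was below every uninduced one, and the parental pair held 20.9 and 17.7 CPM. CRYAA fell (log2 fold change -2.13, SE 0.24). HEY1, a transcriptional repressor downstream of Notch, stood at 6.18, 3.4 and 7.84 CPM without doxycycline and 2.89, 1.25 and 4.54 CPM with it. Its groups overlapped, and HEY1 fell within each line (log2 fold change -1.04, SE 0.17). The parental level of HEY1 was higher and almost equal in both libraries, 25.5 and 24.5 CPM.

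ICAM1, an adhesion molecule induced by NF-kappaB and interferon gamma, stood at 6.18, 3.35 and 6.06 CPM without doxycycline and 2.41, 1.02 and 3.39 CPM with it and fell (log2 fold change -1.23, SE 0.22). The parental pair showed a ratio of the same size, from 7.67 to 3.39 CPM, so a difference of similar size was seen with doxycycline and no hairpin. HIST1H1C, a linker histone, fell with log2 ratios of -0.48, -0.94 and -0.55, and its parental ratio was -0.91. C19orf66, an interferon-induced inhibitor of ribosomal frameshifting, fell (log2 fold change -0.65, SE 0.09), with a parental ratio of -0.22.

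TYMP, thymidine phosphorylase, stood at 139.8, 147 and 145 CPM without doxycycline and 96.5, 93.2 and 105 CPM with it, with tight groups that did not overlap, and fell (log2 fold change -0.55, SE 0.09). Its parental pair held 129 and 109 CPM. ACSBG1, an acyl-CoA synthetase, fell (log2 fold change -0.89, SE 0.16), as did PGD, an enzyme of the pentose phosphate pathway (log2 fold change -0.54, SE 0.09), and HMOX1, haem oxygenase 1 (log2 fold change -0.68, SE 0.12). GINS4, a subunit of the replicative helicase, stood at 39.6, 30.6 and 35.8 CPM without doxycycline and 20.1, 19.8 and 25.6 CPM with it and fell without overlap (log2 fold change -0.69, SE 0.11), with 26.5 and 23.2 CPM in the parental pair. CEP55, a midbody protein needed for abscission, fell in each line by log2 ratios of -0.97, -0.58 and -0.31. The calcium-binding protein S100P stood at 108, 102 and 90.4 CPM without doxycycline and 65.1, 50 and 63.5 CPM with it (log2 fold change -0.76, SE 0.12), and KIAA1644 at 44, 47.8 and 37 CPM without doxycycline and 29.1, 29.2 and 24.6 CPM with it (log2 fold change -0.63, SE 0.08). For both genes the induced libraries lay below all uninduced ones, and the parental ratios were -0.35 and -0.39. SH3PXD2A, the podosome scaffold TKS5, fell with log2 ratios of -0.77, -1.14 and -0.44, and VTI1A, a SNARE protein of the Golgi, with -0.70, -0.70 and -0.42. Over the alternatives the adjusted p of SH3PXD2A ran from 0.0087 to 0.971 and that of TYMP from 4.98e-06 to 0.702 (edgeR, DESeq2 and limma).

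**Figure D2:**
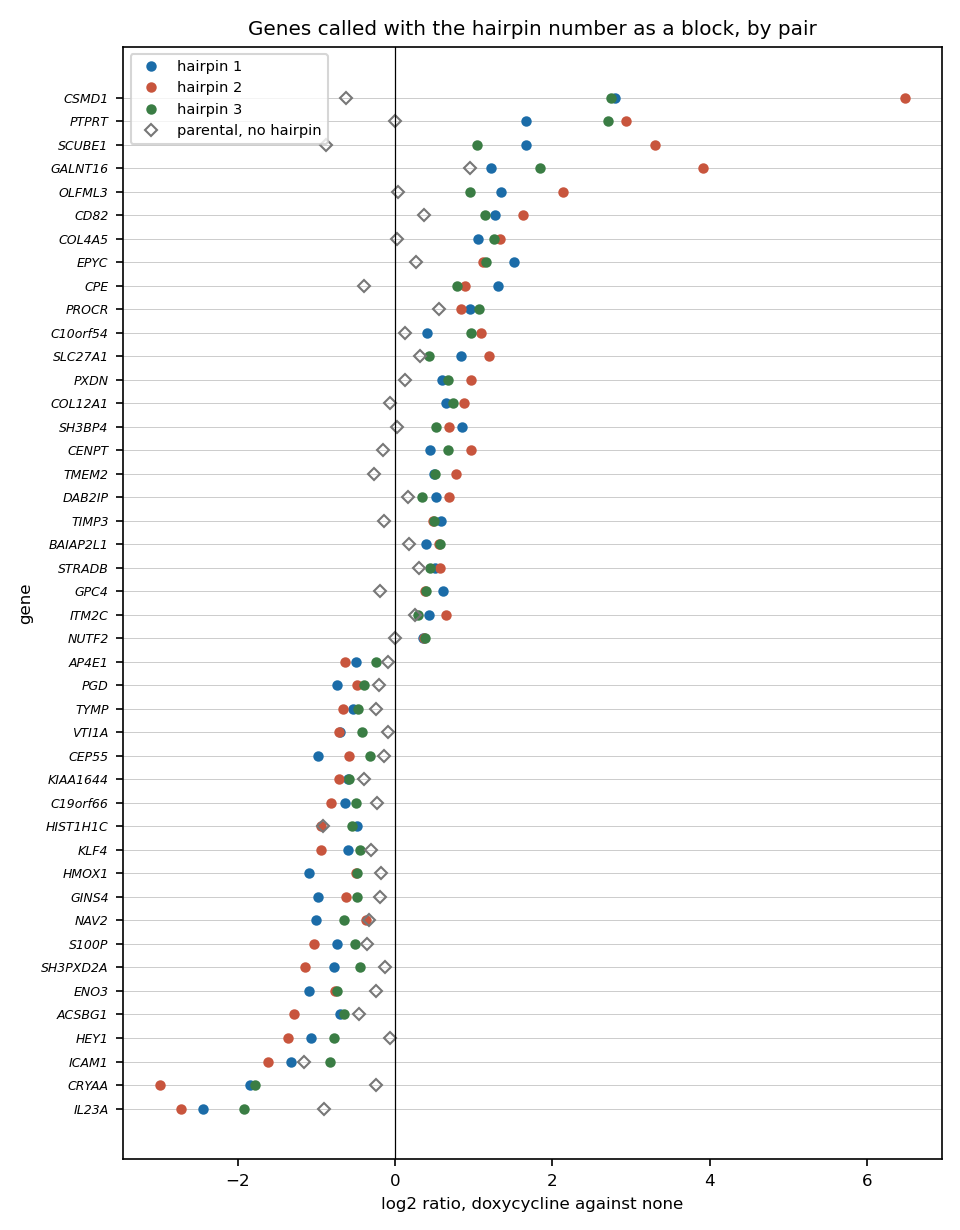
Log2 ratio of doxycycline against none (prior count of 2) for 44 of the 46 genes called by edgeR with the hairpin number as a block, ordered by fitted fold change. Filled circles are hairpins 1 to 3 and open diamonds the parental pair, all single ratios. The genes were chosen by their hairpin ratios, so the circles lie away from 0 by that choice, and a diamond nearer to 0 is not a result.

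In the promoters of the blocked calls, 35 of which were matched to RefSeq, the TAAT core occurred in 37.1% (13 of 35), against 33% of tested genes. The palindrome TAATTA occurred in 0 of 35, against 1.92% of tested genes and 4.49% of all promoters. TAATTA holds both orientations of the core, so the searches overlap.

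Lists of genes were then described by their counts and medians, beside those of all genes tested. The median of all genes was 0 on the log2 scale. Of all genes, 18.9% had ratios above 1 in all 3 hairpins and 15.9% below 1, and the groups did not overlap for 8.54% (induced higher) and 6.31% (induced lower). Members of a list are not independent of each other, and no list was tested.

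Matrix genes encode the proteins that surround and anchor mesenchymal cells. Of 35 genes for collagens and matrix proteins tested, 18 were higher in all 3 hairpins and 0 lower in all 3, with a median of 0.24. Hairpins 1, 2 and 3 had medians of 0.17, 0.42 and 0.25, and the parental pair had 0.11. None was called by edgeR, and COL12A1 was called with the block. COL1A1, the main collagen of bone and skin, stood at 177, 379 and 157 CPM without doxycycline and 237, 1129 and 263 CPM with it (not called, log2 fold change 1.19, SE 0.61). Its induced hairpin 1 library lay below the uninduced hairpin 2 library, so the groups overlapped. COL3A1, which forms fibrils with COL1A1, stood at 1146, 1106 and 1135 CPM without doxycycline and 1455, 2418 and 1498 CPM with it, and the parental pair held 586 and 781 CPM. The COL3A1 groups did not overlap, but the gene was not called by edgeR (log2 fold change 0.67, SE 0.28, adjusted p = 0.586). SPARC, a collagen-binding glycoprotein, had log2 ratios of 0.19, 0.77 and 0.38, and TGFBI, a matrix protein that binds integrins, 0.27, 0.76 and 0.49. Neither was called.

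Of 30 matrix-modifying enzymes and inhibitors, 13 were higher and 2 lower in all 3 hairpins, with a median of 0.12, and TIMP3 was the member called with the block. LOXL4, a lysyl oxidase that crosslinks collagen, stood at 7.03, 2.67 and 5.28 CPM without doxycycline and 12.2, 16.7 and 9.66 CPM with it, without overlap, and was not called (log2 fold change 1.37, SE 0.34). LOXL3 had log2 ratios of 0.51, 0.69 and 0.36. Of 18 basement membrane genes, 7 were higher and 0 lower in all 3, and COL4A5 was the member called with the block. The median was 0.40, but 0.28 over the 9 members at 1 CPM or more, and hairpin 2 had the largest median (0.07, 0.50 and 0.09). LAMA5, a laminin chain of basement membranes, stood at 97.2, 82 and 118 CPM without doxycycline and 136, 151 and 138 CPM with it and was not called (log2 fold change 0.51, SE 0.13).

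Lists of markers of mesenchymal and epithelial state are described next. Of all genes tested, edgeR called 0.0285%, and 0.328% with the block, so few calls in short lists are no result about these lists. Of 10 EMT transcription factors tested, none was called by edgeR, 1 was higher and 4 were lower in all 3 hairpins, PRRX1 included. SNAI2, an EMT repressor of E-cadherin, stood at 93.1, 78.1 and 94.1 CPM without doxycycline and 82.4, 72.7 and 85.7 CPM with it, a difference smaller than the spread between lines. Of 36 mesenchymal developmental transcription factors, 6 were higher and 6 lower in all 3, with a median of 0. Of 19 mesenchymal surface and cytoskeletal genes, ITGA5, the fibronectin receptor chain, was called by DESeq2 alone (log2 ratios 0.26, 0.52 and 0.34). Of 20 actin and smooth muscle genes, TPM1, a tropomyosin, was called by DESeq2 alone (log2 ratios 0.59, 0.73 and 0.48). Of 28 epithelial genes only 12 passed the filter on low counts, 5 of them at 1 CPM or more, and none was called in any of the 3 fits. Of 20 TGF-beta target genes, 4 were higher and 9 lower in all 3 hairpins, without a call.

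Of 23 tetraspanins tested, 10 were higher and 1 was lower in all 3 hairpins, and 8 had induced libraries above all uninduced ones, with a median of 0.22 and a parental median of 0. CD82 was the member called. TSPAN9, next by p, stood at 21.9, 22.8 and 23.1 CPM without doxycycline and 28, 25.3 and 25.9 CPM with it, far closer together than CD82 (log2 fold change 0.22, SE 0.09).

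Of 35 S-phase genes, which copy DNA or license its replication, 20 were lower and 1 was higher in all 3 hairpins, and for 17 the groups did not overlap. The median was -0.23. Hairpins 1, 2 and 3 had -0.31, -0.10 and -0.17, and the parental pair had 0.03. None was called by edgeR, GINS4 was called with the block, and DESeq2 called 2, GINS4 and MCM7. MCM7, a subunit of the helicase that unwinds DNA, stood at 68, 63.4 and 71.8 CPM without doxycycline and 44.5, 49.6 and 59 CPM with it. The 3 induced libraries lay below all uninduced ones, and the parental pair held 56.4 and 58.5 CPM. MCM4 of the same complex stood at 68.3, 62.7 and 70.8 CPM without doxycycline and 49.6, 54.6 and 55.5 CPM with it, again without overlap.

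Of 33 outer kinetochore and mitosis genes, 12 were lower and 1 higher in all 3 hairpins, with none called. The hairpins differed in this list, with medians of -0.44, 0.01 and -0.20, while the parental median was 0.07. Each median rests on a single pair of libraries, and whether it follows the PRRX1 level was not tested. TPX2, a spindle assembly factor, stood at 101, 98.1 and 94.6 CPM without doxycycline and 70.5, 79.4 and 75 CPM with it, without overlap. CENPT was the member of 16 inner kinetochore genes that was called. The list as a whole had a median of -0.13, opposite to CENPT, and 4 members were lower in all 3 hairpins. One of these is CENPH, which stood at 12.7, 13.6 and 11.2 CPM without doxycycline and 9.1, 12.3 and 10.4 CPM with it.

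Cells switch interferon-stimulated genes on in response to interferon or double-stranded RNA. Of 35 tested, 17 were lower and 2 higher in all 3 hairpins, and 11 had groups that did not overlap. The median was -0.41. By line it was -0.22, -1.23 and -0.01 for hairpins 1, 2 and 3, and the parental pair had -0.84. None was called by edgeR with or without the block, and DESeq2 called 6 as lower. These were IFIT1, IFIT2, IFIT3, OASL, HERC5 and RSAD2.

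IFIT2, which binds foreign RNA, stood at 62.7, 119.9 and 66.5 CPM without doxycycline and 35.7, 22.6 and 33.3 CPM with it, and the parental pair held 104 and 52.1 CPM (log2 fold change -1.45, SE 0.23, adjusted p = 0.0823 by edgeR, 2.37e-06 by DESeq2, over a range of 2.37e-06 to 0.401). IFIT1 stood at 90.6, 146 and 80.5 CPM without doxycycline and 55.7, 24.2 and 46.8 CPM with it, and the parental pair held 166 and 68.2 CPM. Among the hairpin lines, hairpin 2 had the highest uninduced and the lowest induced level of both genes. The difference between the hairpin and the parental effect was -0.05 (SE 0.58) for IFIT1 and -0.45 (SE 0.45) for IFIT2 on the log2 scale. Neither was called by edgeR. With 1 parental pair, the part that doxycycline itself has in these values was not tested further.

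Of 25 inflammatory cytokines and NF-kappaB targets, 11 were lower and 0 higher in all 3 hairpins, with a median of -0.18 and a parental median of -0.16. ICAM1 was called with the block. CCL5, a T cell chemokine, stood at 5.84, 8.22 and 5.95 CPM without doxycycline and 2.89, 4.23 and 3.39 CPM with it, without overlap, and was not called (log2 fold change -0.93, SE 0.26). Of 8 IL-12 family cytokines and receptors tested, IL23A was the one called. Its receptor chain IL23R had 0 counts in the 3 uninduced libraries and 2, 28 and 3 counts in the induced ones, at least 9.64-fold more against a floor of 3 counts over the group. Most of these counts came from hairpin 2. IL23R was not called by edgeR with or without the block, and DESeq2 gave it no adjusted p.

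**Figure D3:**
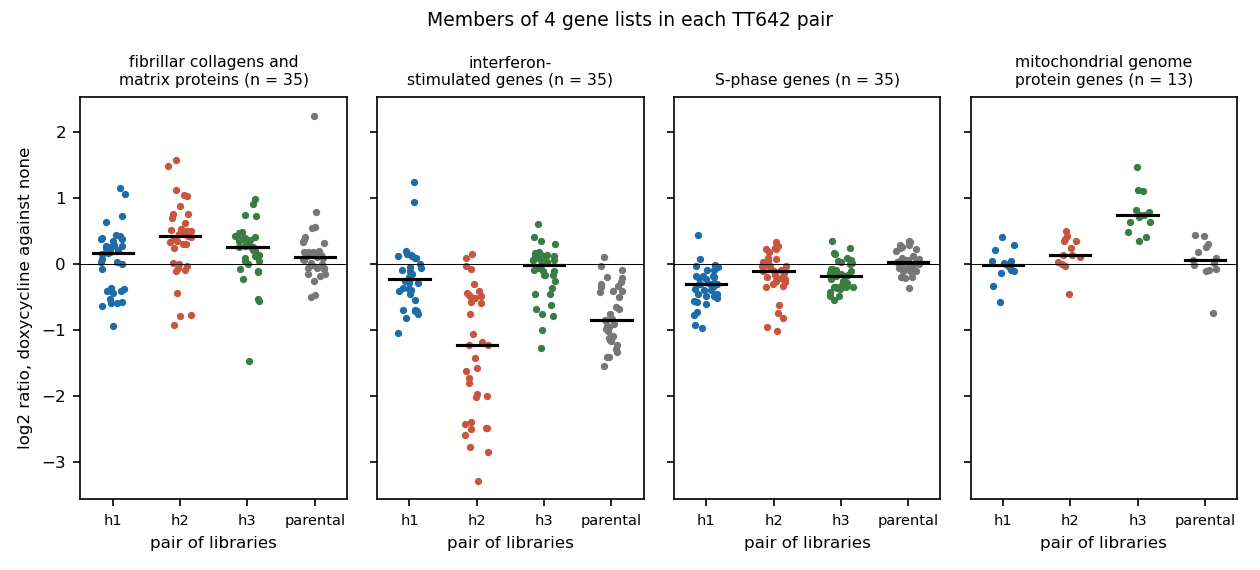
Log2 ratio of doxycycline against none for the tested members of 4 gene lists in each TT642 pair, with 1 point per gene and a bar at the median (h1 to h3 are the hairpins). The medians of interferon-stimulated genes are -1.23 in hairpin 2 and -0.84 in the parental pair, and the medians of S-phase genes are below 0 in each hairpin but not in the parental pair.

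In several metabolic and organelle lists 1 line had the largest median. The 13 protein genes of the mitochondrial genome had a median of 0.29, made up of -0.02, 0.14 and 0.74 in hairpins 1, 2 and 3, with none called. MT-ATP6, a subunit of ATP synthase, stood at 1399.6, 1443 and 1227 CPM without doxycycline and 1626, 2052 and 2656 CPM with it, and the parental pair held 1654 and 2255 CPM. The induced hairpin 3 library, which also had the largest mitochondrial share of counts and the deepest sequencing, stood above the rest, and the part of RNA quality in this was not tested. The 45 nuclear respiratory chain genes and 43 cytosolic ribosomal proteins had medians of 0.13 and 0.12. In both lists hairpin 2 was the highest (0.26 and 0.28), and none was called. Ribosomal protein genes have near-identical pseudogenes, so their counts are uncertain.

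Of 20 endoplasmic reticulum stress genes, 12 were higher and 0 lower in all 3 hairpins, and 9 had groups that did not overlap, with a median of 0.15 beside 0.10 in the parental pair. CALR, the chaperone calreticulin, stood at 456, 473 and 453 CPM without doxycycline and 594, 572 and 541 CPM with it and was called by DESeq2 alone (log2 fold change 0.30, SE 0.08). Of 14 fatty acid synthesis genes, 6 were lower and 2 higher in all 3. SCD, the desaturase that makes oleate, stood at 2707, 2418 and 2211 CPM without doxycycline and 1880.5, 1679 and 1712 CPM with it, without overlap, and was called by DESeq2 alone (log2 fold change -0.48, SE 0.11), as was FADS1, a desaturase of polyunsaturated fatty acids (log2 fold change -0.36, SE 0.08). Of 36 hypoxia and glycolysis genes, 6 were higher and 7 lower in all 3, with ENO3 the member called by edgeR. ADM, a hypoxia-induced peptide hormone, was called higher by DESeq2 alone (log2 ratios 0.22, 1.15 and 0.45).

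The remaining lists had no call by edgeR without the block. Their medians were 0.01 for 23 p53 targets, -0.02 for 17 YAP targets and 0 for 14 Wnt targets. They were 0.04 for 34 amino acid stress genes, -0.06 for 25 cholesterol synthesis genes and -0.01 for 43 mitochondrial ribosomal proteins. For 25 SWI/SNF subunits the median was 0.02, for 13 genes of the small RNA pathway -0.09 and for 23 immediate early genes 0.03, where KLF4 fell with the block (log2 fold change -0.67, SE 0.12). NR4A2, an orphan nuclear receptor of that list, stood at 273, 257 and 284 CPM without doxycycline and 199.8, 135 and 221 CPM with it, without overlap, and was not called. AXIN2, a Wnt target and feedback inhibitor, stood at 3.8, 6.56 and 4.78 CPM without doxycycline and 6.27, 19.3 and 6.89 CPM with it and was not called either (log2 fold change 1.10, SE 0.38).

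Markers of other cell types were examined by their summed level. Blood cell markers summed to 13.9 to 17.5 CPM without and 12.5 to 14.4 CPM with doxycycline, with 8 of 14 at 0 in the 6 libraries. Endothelial markers summed to at most 0.556 CPM. Neural markers, led by NES and TUBB3, summed to 328 to 462 CPM without and 349 to 416 CPM with doxycycline, and SOX10 was at 0. Breast luminal and basal markers, led by XBP1 and ERBB2, summed to 470 to 495 and 453 to 504 CPM, with TFF1, KRT5, KRT6A and EN1 at 0. Skeletal muscle markers, led by TNNT1 and ENO3, summed to 219 to 229 and 216 to 260 CPM, and bone and cartilage markers to 10.6 to 17.2 and 11.9 to 19.2 CPM. Fat cell markers, led by CEBPA, summed to 13.6 to 15.5 without and 15.7 to 16.7 CPM with doxycycline. Of these 9 markers, 6 stayed under 1 CPM in the 6 libraries, and FABP4, ADIPOQ and LEP were at 0. This was the 1 list of the 7 whose groups did not overlap, by a narrow margin. Of all genes tested, 8.54% (induced higher) and 6.31% (induced lower) had groups that did not overlap. These sums are RNA levels in libraries of the TT642 line and do not measure numbers of cells of a type.

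**Figure D4:**
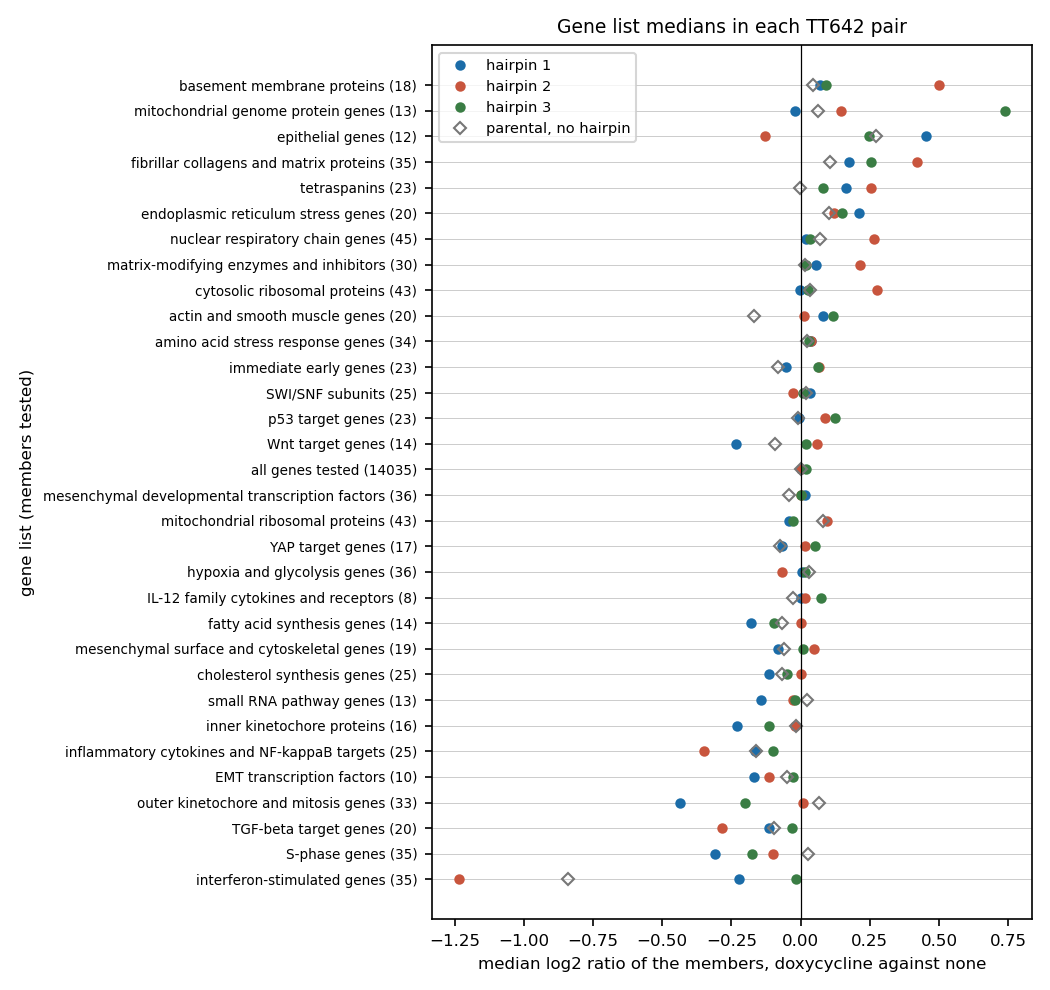
Median log2 ratio of doxycycline against none over the tested members of each gene list (number in brackets), for hairpins 1 to 3 (filled) and the parental pair (open diamonds), all without replicates. Hairpin 2 lies farthest from 0 for interferon-stimulated and basement membrane genes, and hairpin 3 for genes of the mitochondrial genome.

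The number of genes past a given fold differed between hairpins. Past 2-fold were 455 genes in hairpin 1, 632 in hairpin 2 and 257 in hairpin 3, against 252 in the parental pair without a hairpin. Hairpin 2 left the least PRRX1 and hairpin 3 the most, an order that these counts share over 3 lines and without replicates. Hairpin 3 had about as many as the parental pair, and a link to the PRRX1 level was not tested. Across the 10107 genes whose log2 CPM averaged 3 or more, the ratios of 2 hairpins correlated at 0.31 (1 and 2), 0.38 (1 and 3) and 0.18 (2 and 3), Pearson. Those of the parental pair and hairpins 1, 2 and 3 correlated at 0.11, 0.25 and 0.04. These values are across genes, which are not independent replicates.

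Past 2-fold in the same direction in all 3 hairpins were 18 genes, 13 higher and 5 lower, and past 1.5-fold 121, 73 higher and 48 lower. Of the 121, 80 had a parental ratio in the same direction, and 27 were past 1.5-fold there as well. The matching shares of all genes were not computed. The 18 included PRRX1, CD82, COL4A5, EPYC, IL23A, CRYAA and RSAD2, and several genes with few counts. CSMD1, a membrane protein with complement control domains, had 2 counts in the 3 uninduced libraries and 11, 211 and 36 in induced ones, a ratio of 113 (exact interval 31.0 to 939). PTPRT, a receptor tyrosine phosphatase, had 1 count and then 4, 24 and 16 (38.6, 6.57 to 1557). SCUBE1, a secreted surface protein, had 8 counts and then 4, 83 and 9 (10.5, 5.13 to 25.1). These intervals pool the counts of 3 lines and cover counting error only, and hairpin 2 held most of the CSMD1 and SCUBE1 counts. All 3 genes were called with the block, and their fitted fold changes depend on the prior count.

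The parental pair allows the hairpin effect to be set against that of doxycycline alone. By edgeR 0 genes were called for this difference (0% of 14035), while 179 had an unadjusted p under 0.05, and 0 were called by DESeq2 (118 unadjusted) or with the block (287 unadjusted). The lone parental libraries were taken to vary as much as the hairpin groups do. The net difference was -2.07 (SE 0.70) on the log2 scale for PRRX1, 0.86 (SE 0.22) for CENPT and 0.97 (SE 0.31) for CD82. It was -0.63 (SE 0.19) for ENO3 and -1.53 (SE 0.63) for IL23A. CD82, CENPT, ENO3 and IL23A were singled out by their hairpin effect in these libraries. That their net values keep its direction follows from that choice and is not a further result. For ICAM1 it was 0 (SE 0.80).

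The effect was also compared with that in Hs578, where edgeR called 4118 genes (29.3%) against 4 in TT642. Neither parental pair was subtracted here, so a doxycycline response that differs between the lines may be part of these values. The test of the difference called 735 genes (5.24%), but only 25 without the TT642 libraries of hairpin 1 and 24 without those of hairpin 3. Among the 4 TT642 calls the difference was called for ENO3, whose log2 fold change was -0.86 in TT642 and 0.61 in Hs578 (difference -1.47, SE 0.16, adjusted p = 0.00166 by edgeR). It was not called for CD82 (1.35 in TT642 and 1.14 in Hs578, difference 0.21, SE 0.18), CENPT (0.71 in TT642 and 0.56 in Hs578, difference 0.14, SE 0.15) or IL23A (-2.44 in TT642 and 0.53 in Hs578, difference -2.97, SE 1.04). COL4A5 also differed between the lines (1.28 in TT642 and -0.34 in Hs578, difference 1.62, SE 0.36), as did ICAM1 (-1.17 in TT642 and 0.59 in Hs578, difference -1.77, SE 0.47). TGFBI had positive values in both lines, and the difference was called (0.53 in TT642 and 1.95 in Hs578, difference -1.42, SE 0.32). CCL5 had opposite signs (-0.93 in TT642 and 2.99 in Hs578, difference -3.92, SE 1.02), and so had the ubiquitin-like interferon-induced protein ISG15 (-0.79 in TT642 and 1.06 in Hs578, difference -1.85, SE 0.45). PRRX1 itself was not called for a difference (-2.03 in TT642 and -2.28 in Hs578, difference 0.25, SE 0.49).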

How the data were processed

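RNA was measured in 16 libraries, of which 6 TT642 hairpin libraries are described. Per the labels' protocols, a stranded kit and 500 ng of total RNA were used to sequence polyadenylated RNA. The authors deposited raw read counts for 20114 gene symbols, and FPKM values, which the authors scaled by transcript length and depth, for 20111. Per the submitters' processing notes, the build is hg19. No source used here states the aligner, counter, annotation or use of strand, so reads of copies, overlapping or antisense genes may be split in an unknown way.

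Counts were tested in R 4.3.3 with edgeR 4.0.16 (quasi-likelihood, TMM scaling, default expression filter, robust moderation). All 16 libraries were fitted with 8 group means and 8 residual degrees of freedom. With the replicate block 4 residual degrees of freedom were left. Tests were two-sided, adjusted by Benjamini-Hochberg over the 14035 genes tested and called at an adjusted p under 0.05. CPM are TMM-scaled, and ratios within a pair used a prior count of 2. DESeq2 1.42.0 on the counts and limma 3.58.1 on log2(FPKM + 1) and log2(FPKM + 0.1) were alternatives, beside RLE scaling, no filter, TT642 libraries alone and leaving out hairpins or libraries. DESeq2 gave no adjusted p for 1906 genes. The TT642 hairpin comparison alone was also run on simulated counts, with and without the block. There every hairpin had the same change, and the outcome is not reported here.

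Same-numbered libraries come from 1 derived line, so numbers pair them. Their deviations from the group means correlated at 0.51, 0.42 and 0.43, and those of other numbers at -0.37 to -0.06. Deviations cancel out within a group of 3 libraries, so negative values between other numbers follow in part from this arithmetic. The lowest chi-square per degree of freedom between hairpin libraries was 4.72.

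The comparison, the 38 gene lists and the genes were chosen with earlier results of these data known. The naming rule took PRRX1, PRRX2, SMARCB1, the 4 called genes, the 8 blocked calls per direction with the largest fold change (mean log2 CPM of at least 2, 1 direction in all hairpins), genes of smallest p up to 20, and 2 members per list. A few genes it selects are not reported here. All other genes named were chosen after their values were seen. The blocked fits that leave out a hairpin and list medians over members of at least 1 CPM were added after seeing the data. Promoters were matched by symbol to RefSeq (35 of 46 blocked calls).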

Additional observations from a re-analysis of the deposited data

Results flagged for a closer look

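Of the genes named here, 15 had an effect of hairpin induction in TT642 that differed from that in Hs578. This was by edgeR's test of the difference between the lines at an adjusted p under 0.05. Over all genes tested it called 735 (5.24%), but 25 without the TT642 libraries of hairpin 1 and 24 without those of hairpin 3. Many of the named genes were chosen for their TT642 effect, which is part of this difference, so the 15 partly describe that choice. The parental pairs were not subtracted, so each effect includes any response to doxycycline itself. Values are log2 fold changes in TT642 and Hs578, followed by TT642 minus Hs578. The TT642 effect was the lower one for CCL5 (-0.93 and 2.99, difference -3.92), ENO3 (-0.86 and 0.61, difference -1.47), ICAM1 (-1.17 and 0.59, difference -1.77), ISG15 (-0.79 and 1.06, difference -1.85) and TGFBI (0.53 and 1.95, difference -1.42). It was the higher one for AXL (0.34 and -0.27, difference 0.60), BAIAP2L1 (0.51 and -0.09, difference 0.60), COL4A5 (1.28 and -0.34, difference 1.62), CREB3L2 (0.28 and -0.31, difference 0.58), DAB2IP (0.54 and -0.09, difference 0.63) and LAMA5 (0.51 and -0.20, difference 0.71). The same held for PROCR (0.99 and 0.23, difference 0.76), SH3BP4 (0.71 and -0.32, difference 1.03), SLC38A2 (-0.29 and -0.98, difference 0.69) and TMEM2 (0.60 and -0.10, difference 0.70). AXL is a receptor kinase, CREB3L2 a factor of secretory cells and SLC38A2 an amino acid transporter. SH3BP4 and BAIAP2L1 encode endocytic and cytoskeletal adaptors. All of these calls rest on 3 libraries per group.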

How the results depend on the processing

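The direction of the 4 calls and of PRRX1 was the same under the 22 alternatives run for each. The number of calls in TT642 hairpin lines was 4 and became 79 by DESeq2, 8 without the filter, 2 with the 8 or the 6 TT642 libraries alone, 46 with the replicate block, 15 with the replicate block on 6 libraries alone and 13 by limma on log2(FPKM + 1). Leaving out a hairpin or a library gave 0 to 6 calls by edgeR (0 without hairpin 1, with 685 unadjusted), and 6 to 41 with the replicate block. PRRX1 crossed the threshold by DESeq2 (-2.04), without robust moderation (-2.03) and by limma (-2.18 and -2.20). Its fold change ran from -2.55 to -1.69 when a hairpin or a library was left out. The TT642 minus Hs578 calls, 735, became 1425 by DESeq2 and 1763 with the replicate block, and 24 to 533 without 1 hairpin. Net of the parental pair 0 genes were called by RLE scaling, DESeq2, no filter, the replicate block and without each hairpin.

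List medians moved for matrix-modifying enzymes (0.0562 to 0.22 when hairpins were left out), EMT factors (-0.20 to -0.0971), developmental factors (0 to 0.0121, and -0.0124 at 1 CPM or more), actin genes (0.0299 to 0.14), the IL-12 family (-0.12 to 0.0421), tetraspanins (0.10 to 0.21), fatty acid synthesis (-0.14 to -0.0205) and amino acid stress (0.0283 to 0.0527, and 0.0335 by RLE). Genes past 1.5-fold in all 3 hairpins fell in number from 121 to 66 with a prior count of 5, and those past 2-fold went from 18 to 61 and 7 with prior counts of 0.5 and 5. SMARCB1, at 0.03, ran from -0.0718 to 0.12 when a hairpin or library was left out, turning sign without hairpin 2 or either of its libraries (-0.0719 with the replicate block). COL12A1 ran from -0.0783 to 1.57 and turned sign without the induced hairpin 3 library. The cause was not tested. Genes with few counts in the uninduced libraries, such as CSMD1, are limited by depth.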
